A study of Trichoderma reesei with 9 samples.

Results

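The 6 genes described here encode glucanases of *Trichoderma reesei* RUT-C30: 3 of family GH17 (M419DRAFT_110434, M419DRAFT_124460 and M419DRAFT_141702), 2 of family GH128 (M419DRAFT_105655 and M419DRAFT_34405) and 1 of subfamily GH30_3 (M419DRAFT_74697). They were taken by locus tag from a table of 9849 genes, and the family tags are those of the study's own annotation. For the GH30 gene the annotation and the study's text give subfamily GH30_3, whereas a caption in its supplement writes GH30_2. That annotation covers only genes that passed the study's thresholds in these same samples. A gene of these families that did not change was therefore not listed, and the number of members below glucose is not independent evidence of a direction. Nor is the size of the members' changes independent evidence. RUT-C30 carries a truncated *cre1*, the gene of the carbon catabolite repressor, in every culture. Washed mycelium was starved of carbon and then grown for 7 days in Highley's medium with 1% (w/v) glucose, or with 0.45% (w/v) freeze-dried necromass of *Hyaloscypha bicolor* of low or of high melanin content. Each substrate had 3 cultures, named by the study as independent biological replicates. Each necromass type was harvested in bulk and the types were grown under different culture conditions, so melanin and other features of the 2 preparations cannot be told apart. Likewise, the kind and the amount of carbon cannot be told apart between glucose and necromass. The study adds that its substrates could have been compared at unlike growth phases, which was not tested here.

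Fungal walls are built around branched β-glucan, and the enzymes that cut or rejoin its chains serve both the growing hypha and the digestion of foreign walls. Family GH17 holds β-1,3-glucanases and β-1,3-glucan transferases, among them the wall protein Bgl2 of *Saccharomyces cerevisiae*. Family GH128 holds β-1,3-glucanases, known from the mushroom *Lentinula edodes*. Fungal enzymes of subfamily GH30_3 cut β-1,6-glucan, the linkage of side branches. The annotation gives all 3 GH17 genes the enzyme class of glucan 1,3-β-glucosidase and gives M419DRAFT_74697 that of glucosylceramidase, an activity known from other subfamilies of GH30. The GH128 genes carry no enzyme class.

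Poly(A) RNA was sequenced, and the values are kallisto's estimated counts per gene. The total count per library lay between 18074631 and 24635281. Levels are TMM-normalised and given per 1000000 counts (CPM). A mean stands with its SD, and n = 3 for each substrate. All 6 members were among the 9312 genes that reached 10 counts in 3 or more libraries, which were tested together in 1 edgeR quasi-likelihood fit with Benjamini-Hochberg adjustment. The term called is kept for genes whose adjusted p lay under 0.05 and whose level differed by 2 or more log2 units. The 10 genes with most counts took 5.74% to 10.3% of the counts on glucose, 24.4% to 27.8% on low melanin and 31.2% to 35.7% on high melanin necromass. Glucose replicate 1 stood apart from the other glucose libraries, with 312 genes (3.35%) at least 1 log2 unit above and 603 genes (6.48%) at least 1 log2 unit below both. In each of the other 8 libraries these counts were 8 to 30 and 20 to 66 genes. Where this library moved a member's value most, that value is also given without it.

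All 6 glucanase genes had lower mean levels on both necromass types than on glucose. On low melanin necromass 5 of the 6 were called lower, where 7.18% of all genes tested were called lower. On high melanin necromass all 6 were called lower, against 8.8% of all genes tested. None was called higher. The median log2 fold change of the 6 was −2.99 on low and −3.56 on high melanin necromass, and over all genes tested it was 0.01 and 0.02. The 6 were listed through a fold change threshold in these same samples and the other genes were not, so medians of unlike size follow from the listing. Both comparisons use the same 3 glucose libraries. In bulk RNA, fewer cells that express a gene and less RNA of it per cell cannot be told apart.

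The summed level of the 6 genes was 2096, 2352 and 2875 CPM in the glucose libraries, 341, 308 and 454 CPM on low melanin necromass and 175, 199 and 180.1 CPM on high melanin necromass. The 3 substrates did not overlap. From a mean of 2441 ± 397 CPM on glucose, the sum was 368 ± 76.8 CPM on low melanin necromass, which is 15.1% of the glucose mean. It was 185 ± 12.9 CPM on high melanin necromass, or 7.57% of the glucose mean. The GH17 genes accounted for 2001 ± 374 CPM of the sum on glucose, for 314 ± 75.5 CPM with low melanin and for 143 ± 10.6 CPM with high melanin necromass. The GH128 genes accounted for 435 ± 27.3, 52.9 ± 3.28 and 41.4 ± 3.98 CPM. On glucose M419DRAFT_34405 (mean 3.75 CPM) and M419DRAFT_74697 (mean 4.96 CPM) added little, so the sum mainly describes the other members.

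**Figure D1:**
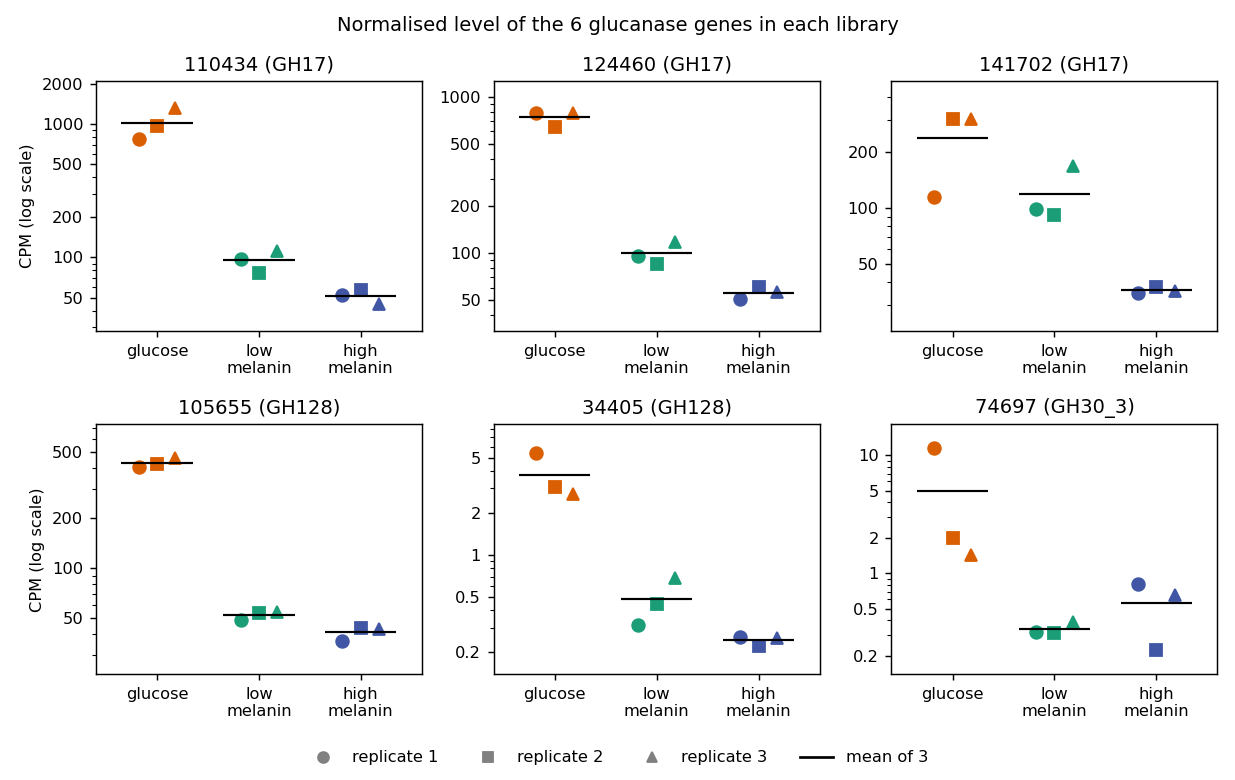
Level of each of the 6 genes in CPM (log axis, own range per panel) in the 9 libraries, coloured by substrate, with the symbol giving the replicate and the line the mean of 3. Glucose libraries lie above all necromass libraries in 5 panels, and in that of M419DRAFT_141702 glucose replicate 1 (114 CPM) lies below low melanin replicate 3 (169 CPM).

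Of the GH17 genes, M419DRAFT_110434 had the most negative log2 fold changes against glucose. Its level was 769.7, 972 and 1319 CPM on glucose, 96.9, 77.1 and 112 CPM on low melanin necromass, and 52.2, 56.7 and 44.8 CPM on high melanin necromass. Every glucose library stood at least 6.89 times above every low melanin library, and every low melanin library at least 1.36 times above every high melanin library. Against glucose its level on low melanin necromass was 10.7-fold lower, or −3.42 in log2 (SE 0.23, adjusted p = 9.59e-07, edgeR). On high melanin necromass it was 19.9-fold lower, or −4.32 in log2 (SE 0.24, adjusted p = 2.43e-07, edgeR).

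M419DRAFT_124460 is the GH17 gene whose annotation also carries the glycoside hydrolase family 17 domain of Pfam. It stood at 789, 645 and 786 CPM on glucose, at 95.7, 84.6 and 118 CPM on low melanin necromass, and at 50.5, 60.8 and 55.9 CPM on high melanin necromass. Again the substrates did not overlap, and the order was glucose, low melanin and high melanin. The means were 740.1 ± 82.0, 99.6 ± 17.2 and 55.7 ± 5.13 CPM. The log2 fold change was −2.89 on low (SE 0.16, adjusted p = 2.99e-07, edgeR) and −3.73 on high melanin necromass (SE 0.17, adjusted p = 7.65e-08, edgeR).

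The third GH17 gene, M419DRAFT_141702, departed from this pattern on low melanin necromass. Its level was 114, 304 and 303 CPM on glucose, 98.9, 91.4 and 169 CPM on low melanin necromass, and 34.5, 37.5 and 35.5 CPM on high melanin necromass. Glucose and low melanin libraries overlapped, because glucose replicate 1 was lower and low melanin replicate 3 higher than the other libraries of their substrates. High melanin libraries lay below all others, by at least 2.44 times against low melanin and 3.05 times against glucose. The mean on low melanin necromass was 49.7% of that on glucose, against 14.9% on high melanin necromass.

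For M419DRAFT_141702 the log2 fold change on low melanin necromass was −1.01 (95% interval −1.80 to −0.21, adjusted p = 0.0261, edgeR), short of the fold change threshold. Leaving out single libraries, the adjusted p ranged from 9.81e-05 without glucose replicate 1, where the log2 fold change was −1.35, to 0.0943 without low melanin replicate 2, where it was −0.86 (edgeR). It also exceeded 0.05 without glucose replicate 2 (0.0906), glucose replicate 3 (0.0890) or low melanin replicate 1 (0.0869), and in the edgeR fit of only these 2 substrates (0.0552). Without low melanin replicate 3 the log2 fold change was −1.34. On high melanin necromass M419DRAFT_141702 fell by 2.75 on the log2 scale (SE 0.37, adjusted p = 9.45e-05, edgeR).

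In family GH128, M419DRAFT_105655 was the member that varied least among glucose and among low melanin replicates. It stood at 406, 425 and 462 CPM on glucose, 48.8, 54.0 and 54.4 CPM on low melanin necromass, and 36.5, 43.8 and 43.0 CPM on high melanin necromass. The coefficient of variation was 6.62% on glucose, 5.97% on low and 9.70% on high melanin necromass. The highest necromass library remained 7.46 times below the lowest glucose library, while the 2 necromass types were separated by only 1.11 times. The log2 fold change was −3.04 on low (SE 0.12, adjusted p = 3.70e-08, edgeR) and −3.39 on high melanin necromass (SE 0.12, adjusted p = 1.96e-08, edgeR).

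The other GH128 gene, M419DRAFT_34405, gave few counts in any library. It had 122, 59 and 56 counts on glucose (5.42, 3.08 and 2.76 CPM), 6, 10 and 14 on low melanin necromass (0.315, 0.447 and 0.678 CPM), and 6, 5 and 5 on high melanin necromass (0.257, 0.222 and 0.253 CPM). No library of glucose overlapped with one of necromass. The exact 95% Poisson interval of 5 counts runs from 1.62 to 11.7 counts and that of 14 from 7.65 to 23.5, so the lowest and highest necromass libraries overlap in counting error. Such intervals cover counting error only. The log2 fold change of M419DRAFT_34405 was −2.95 on low (SE 0.37, adjusted p = 5.52e-05, edgeR) and −3.92 on high melanin necromass (SE 0.40, adjusted p = 1.25e-05, edgeR). Without glucose replicate 1 these values were −2.59 and −3.56.

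The GH30_3 gene M419DRAFT_74697 had 258, 38 and 29 counts on glucose, or 11.5, 1.99 and 1.43 CPM. On low melanin necromass it had 6, 7 and 8 counts (0.315, 0.313 and 0.387 CPM), and on high melanin necromass 19, 5 and 13 counts (0.814, 0.222 and 0.659 CPM). All glucose libraries were above all necromass libraries, but replicate 1 was far above the other 2 glucose libraries, so the glucose SD exceeded the mean (4.96 ± 5.64 CPM). The mean of the other 2 was 1.71 CPM. The log2 fold change was −3.86 on low (95% interval −5.82 to −1.90, adjusted p = 0.00277, edgeR) and −3.13 on high melanin necromass (95% interval −4.96 to −1.31, adjusted p = 0.00564, edgeR).

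Without glucose replicate 1 the log2 fold changes of M419DRAFT_74697 were −2.32 on low (adjusted p = 0.000547, edgeR) and −1.59 on high melanin necromass (adjusted p = 0.00348, edgeR). The second value no longer reaches the fold change threshold, so that 5 of the 6 genes were then called lower on high melanin necromass, against 8.24% of all genes tested. Tested against the threshold of 2 itself with glmTreat, 4 genes passed on low and 4 on high melanin necromass, against 4.07% and 5.48% of all genes tested that were lower by this rule. M419DRAFT_74697 did not pass in either comparison (adjusted p = 0.0749 and 0.180, edgeR), nor did M419DRAFT_141702 on high melanin necromass (adjusted p = 0.0532, edgeR).

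**Figure D2:**
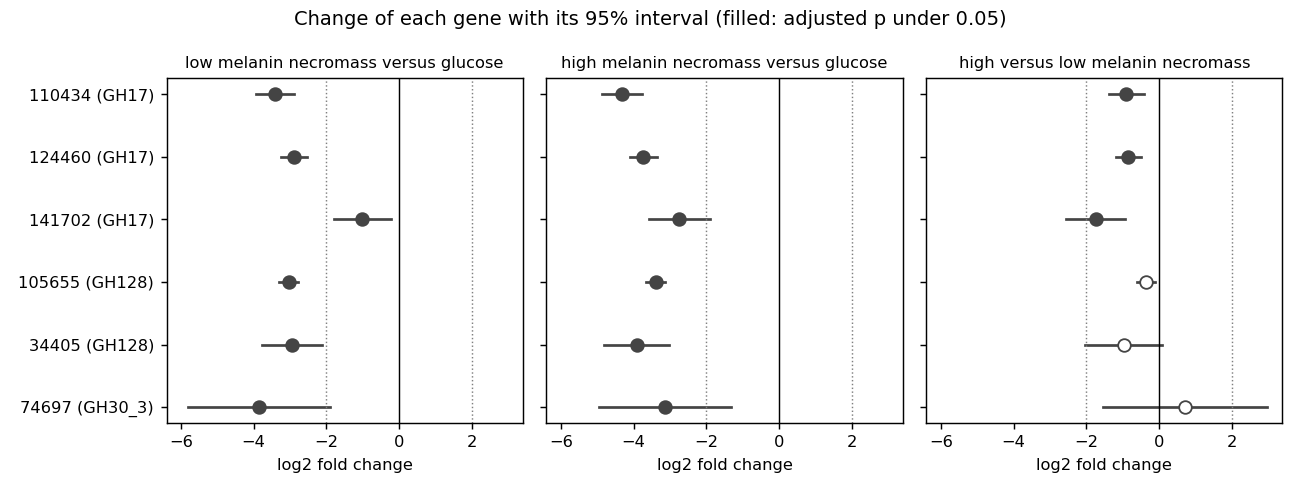
Log2 fold change of each gene (points) with its 95% interval from the edgeR fit of 9 libraries (lines) in the 3 comparisons. Filled points have an adjusted p under 0.05 and dotted lines mark log2 fold changes of −2 and 2. Intervals are narrowest for M419DRAFT_105655 and widest for M419DRAFT_74697, the only gene whose point lies above 0 between the necromass types.

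High and low melanin necromass were then compared with each other, to ask whether melanin content goes with a further change of these genes. The 3 GH17 genes were lower on high melanin necromass at an adjusted p under 0.05, where 3.93% of all genes tested were lower by that rule. With the fold change threshold added, edgeR called none of the 6, against 0.215% of all genes tested, while 4 of the 6 were lower at an unadjusted p under 0.05, against 11.7% of all genes tested. The largest difference was that of M419DRAFT_141702, 3.34-fold lower or −1.74 in log2 (SE 0.36, adjusted p = 0.0180, edgeR). Only 0.537% of the genes tested lay lower. In the fits here, M419DRAFT_141702 passed both thresholds only on high melanin necromass against glucose. The annotation lists only genes with such a change, so this rank between necromass types is not independent evidence. M419DRAFT_110434 changed by −0.89 (SE 0.21, adjusted p = 0.0308, edgeR) and M419DRAFT_124460 by −0.84 (SE 0.15, adjusted p = 0.0102, edgeR).

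The remaining genes did not pass the test between necromass types. M419DRAFT_105655 had a log2 fold change of −0.35 (95% interval −0.59 to −0.11, adjusted p = 0.0758, edgeR). The adjusted p was 0.0311 with DESeq2 and 0.0235 without glucose replicate 1 (edgeR). With any 1 necromass library left out it rose, to between 0.145 and 0.263 (edgeR). M419DRAFT_34405 had one of −0.97 (95% interval −2.02 to 0.09, adjusted p = 0.231, edgeR). For M419DRAFT_74697 it was 0.73 (95% interval −1.53 to 2.98, adjusted p = 0.695, edgeR), and its high melanin libraries lay on both sides of the low melanin ones.

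Whether the GH17 genes passed the test between necromass types changed with single libraries. Without high melanin replicate 1 these were −0.90, −0.77 and −1.71 for M419DRAFT_110434, M419DRAFT_124460 and M419DRAFT_141702, and none of the 3 passed. At an unadjusted p under 0.05, 3 of the 6 members were then lower, against 8.48% of all genes tested. The adjusted p were then 0.108 for M419DRAFT_110434, 0.0621 for M419DRAFT_124460 and 0.0816 for M419DRAFT_141702 (edgeR). Without low melanin replicate 1 M419DRAFT_110434 did not pass (adjusted p = 0.109, edgeR). M419DRAFT_124460 alone passed without low melanin replicate 3, high melanin replicate 2 or high melanin replicate 3. The fits without low melanin replicate 1, low melanin replicate 3 or any high melanin library also found fewer of all genes lower, 96 to 162 in place of 366. Without glucose replicate 1, which is in neither group, 1105 genes and 4 of the 6 members were lower. The 3 log2 fold changes remained negative in every fit, from −1.04 to −0.76 for M419DRAFT_110434, −0.95 to −0.69 for M419DRAFT_124460 and −1.91 to −1.41 for M419DRAFT_141702.

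Ordered by substrate, 4 of the 6 genes had every glucose library above every low melanin library and every low melanin library above every high melanin library. The same order without overlap was held by 11.4% of all genes tested. These were M419DRAFT_110434, M419DRAFT_124460, M419DRAFT_105655 and M419DRAFT_34405. For M419DRAFT_34405 the last step rests on library size alone, since its lowest low melanin and its highest high melanin library both had 6 counts. In 5 of the 6, and in 33.2% of all genes tested, every glucose library lay above every necromass library. M419DRAFT_74697 met only the second of these, and M419DRAFT_141702 neither.

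The GH17 genes changed unequally. Within a library, the log2 ratio of M419DRAFT_141702 to M419DRAFT_110434 counts was −2.75, −1.68 and −2.12 on glucose, 0.03, 0.25 and 0.59 on low melanin necromass, and −0.60, −0.60 and −0.34 on high melanin necromass. The 3 substrates did not overlap, and the ratio was highest on low melanin necromass. Its mean was 2.47 log2 units higher on low melanin necromass than on glucose and 0.80 lower on high than on low melanin necromass.

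The ratio of M419DRAFT_141702 to M419DRAFT_124460 gave the same order, with means of −1.75 ± 0.91 on glucose, 0.22 ± 0.25 on low and −0.63 ± 0.08 on high melanin necromass. M419DRAFT_110434 and M419DRAFT_124460 kept closer to each other. Their log2 ratio was −0.07 ± 0.08 on low and −0.12 ± 0.19 on high melanin necromass. On glucose it was −0.04 in replicate 1 but 0.59 and 0.75 in replicates 2 and 3. A ratio within a library does not depend on the scaling between libraries, but it shows only that the genes changed unequally. kallisto divides reads shared by similar transcripts by estimation, and whether the GH17 transcripts share reads was not tested.

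**Figure D3:**
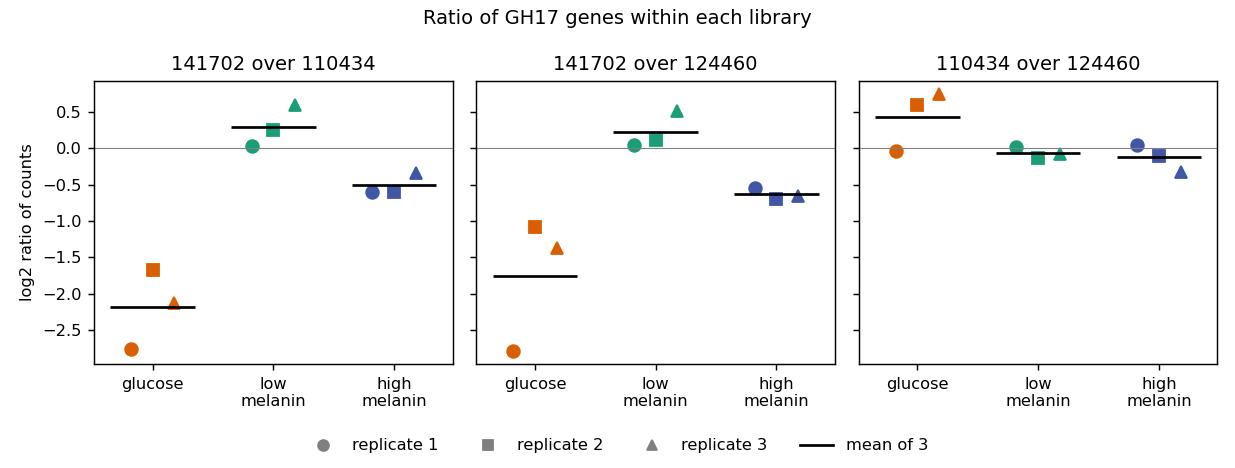
Log2 ratio of the counts of 2 GH17 genes in each of the 9 libraries, by substrate, with lines at the mean of 3. Both ratios of M419DRAFT_141702 are lowest on glucose (means −2.18 and −1.75) and highest on low melanin necromass (0.29 and 0.22), while the ratio of M419DRAFT_110434 to M419DRAFT_124460 overlaps among substrates.

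The log2 ratio of the GH128 gene M419DRAFT_105655 to the GH17 gene M419DRAFT_124460 was −0.78 ± 0.18 on glucose and −0.91 ± 0.24 on low melanin necromass, with overlapping libraries. It was −0.44 ± 0.05 on high melanin necromass, above every library of the other substrates.

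Glucose replicate 1 separated the 6 genes. Relative to the mean log2 CPM of the other 2 glucose libraries, M419DRAFT_74697 was higher in it by 2.70 and M419DRAFT_34405 by 0.87. M419DRAFT_141702 was 1.41 and M419DRAFT_110434 0.56 log2 units lower in it. M419DRAFT_124460 (0.15) and M419DRAFT_105655 (−0.13) lay closest to the other glucose libraries. This library also had the lowest share of counts in its 10 leading genes (5.74%, against 9.82% and 10.3% in the other glucose libraries), and the part of such library differences in the values of the 6 genes was not tested.

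On low melanin necromass, replicate 3 had the highest level of the substrate for each of the 6 genes. How many of all genes were highest in this library was not determined. The lead over replicate 2 was narrow for M419DRAFT_105655 (54.4 against 54.0 CPM) and M419DRAFT_74697 (8 against 7 counts). Replicate 3 stood out as follows. It was above the mean of the other 2 libraries by 0.83 log2 units for M419DRAFT_141702, 0.71 for M419DRAFT_34405, 0.40 for M419DRAFT_124460, 0.37 for M419DRAFT_110434, 0.24 for M419DRAFT_74697 and 0.09 for M419DRAFT_105655. On high melanin necromass the deviations of M419DRAFT_74697 were 0.89, −1.38 and 0.49 log2 units in replicates 1 to 3, wider than on low melanin necromass. Those of the other 5 genes lay between −0.28 and 0.23 log2 units.

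**Figure D4:**
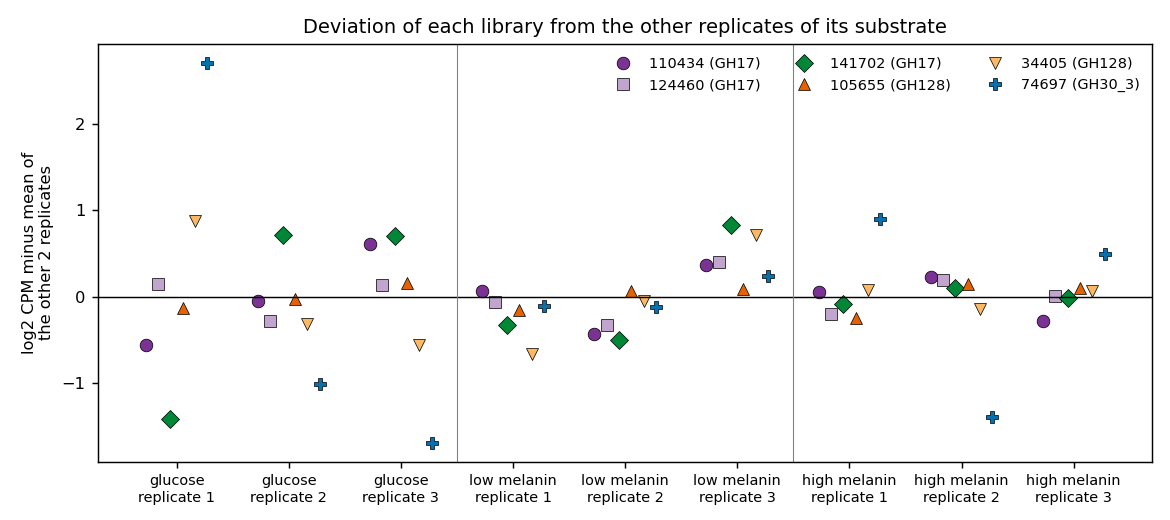
Log2 CPM of each gene in each library minus the mean of the other 2 libraries of the same substrate. Points spread most in glucose replicate 1, from −1.41 (M419DRAFT_141702) to 2.70 (M419DRAFT_74697), and all 6 lie above 0 in low melanin replicate 3.

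Beside these genes stand 17 others, of which 15 belong to families that act on glucan (GH16, GH55, GH64, GH71 and GH72) and 2 to other subfamilies of GH30. They come from the same study annotation, which covers only genes that passed the study's thresholds in these same samples. That most of them were called, and the size of their changes, are therefore no independent evidence. On low melanin necromass 10 of the 17 were called higher and 4 lower, and on high melanin necromass 12 were called higher and 3 lower. Of all genes tested, 12% were called higher on low and 13.5% on high melanin necromass, beside the shares called lower given above. Their median log2 fold change was 2.63 on low and 3.13 on high melanin necromass. All 3 GH64 genes, β-1,3-glucanases, and both GH71 genes, α-1,3-glucanases, were called higher on high melanin necromass. Both comparisons share the glucose libraries.

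A gene of the list that was lower on necromass, chosen after its values were seen, is M419DRAFT_103899. It carries the tag of GH72, the β-1,3-glucan transferases known as Gas1 in *S. cerevisiae*. Its level was 1498 ± 238 CPM on glucose, 279 ± 43.2 CPM on low melanin and 286 ± 12.7 CPM on high melanin necromass. These are −2.42 and −2.39 log2 units against glucose (adjusted p = 1.20e-06 and 1.01e-06, edgeR). The most negative log2 fold changes of the list were those of the GH16 gene M419DRAFT_111701, at −4.42 on low (SE 0.20, adjusted p = 9.89e-08, edgeR) and −6.46 on high melanin necromass (SE 0.23, adjusted p = 2.14e-08, edgeR). Between high and low melanin necromass it was −2.04 (SE 0.21, adjusted p = 0.00131, edgeR).

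Both GH30 genes of the list rose on necromass, unlike M419DRAFT_74697. M419DRAFT_93498 (GH30_7, a subfamily known for fungal xylanases) had the largest rise of the list. It stood at 4.53 ± 0.315 CPM on glucose, 1133 ± 208 CPM with low melanin and 2327 ± 114 CPM with high melanin necromass (adjusted p = 7.77e-09 and 4.24e-09, edgeR). M419DRAFT_11580 (GH30_5) stood at 3.86 ± 0.552, 91.2 ± 7.04 and 85.1 ± 8.33 CPM (adjusted p = 1.45e-08 and 1.33e-08, edgeR). Between the necromass types, the largest rise of the list was that of the GH16 gene M419DRAFT_95463, at 2.98 log2 units (SE 0.52, adjusted p = 0.00885, edgeR), between means of 0.146 and 1.18 CPM. The lower of these means is at the level that 3 counts give (0.128 to 0.158 CPM), so the rise rests on few counts.

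**Figure D5:**
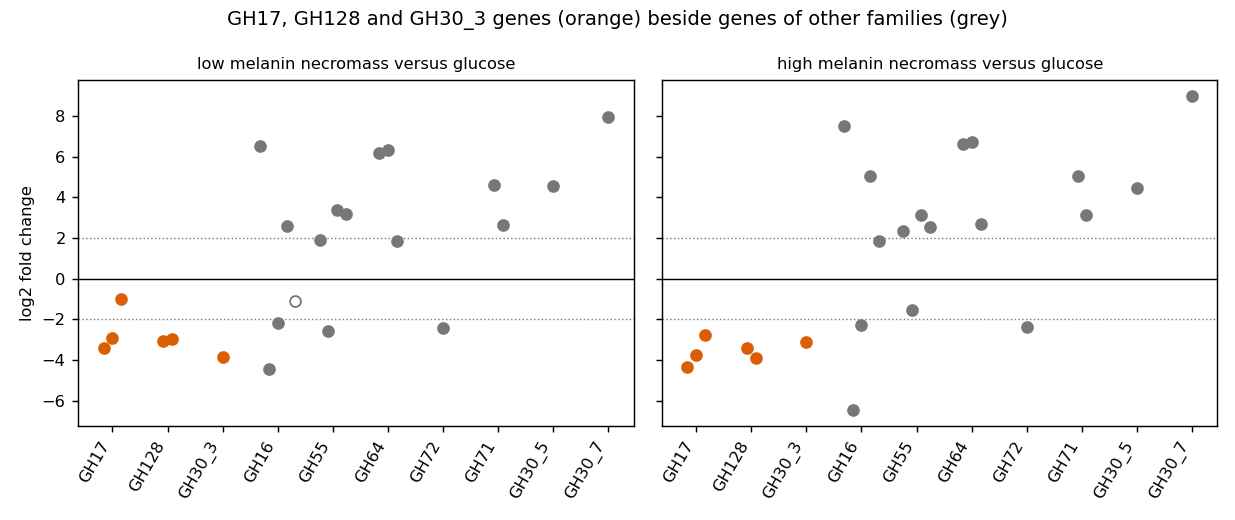
Log2 fold change against glucose of the 6 genes (orange) and of 17 other genes by family (grey), 1 point per gene, filled where the adjusted p was under 0.05. All orange points lie below 0, from −3.86 to −1.01 on low and −4.32 to −2.75 on high melanin necromass, and most grey points lie above 0.

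Across the 9 libraries the 6 genes did not share 1 profile. The Pearson correlation of log2 CPM was 0.96 to 0.99 for the pairs among M419DRAFT_110434, M419DRAFT_124460, M419DRAFT_105655 and M419DRAFT_34405. M419DRAFT_141702 correlated with M419DRAFT_110434 at 0.85 and with M419DRAFT_74697 at 0.36. Without glucose replicate 1 the last 2 values were 0.90 and 0.54. These are descriptions over 9 libraries in 3 substrates, which share depth and normalisation.

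Among 8895 other genes with a mean of at least 1 CPM, the closest profile to M419DRAFT_110434 was that of M419DRAFT_124942 (r = 0.998), followed by M419DRAFT_101805 (0.996). For M419DRAFT_124460 it was M419DRAFT_96464 (0.998), annotated as the Rieske protein of the respiratory cytochrome complex, and M419DRAFT_102348 (0.998). M419DRAFT_105655 was closest to M419DRAFT_79958 (0.999) and to M419DRAFT_25190 (0.999), which carries an amine oxidase domain. M419DRAFT_34405 was closest to M419DRAFT_34212 (0.996) and M419DRAFT_141332 (0.996). A correlation does not compare the size of changes, and each of these genes fell by a smaller factor on necromass than its member. M419DRAFT_124942 stood at 256, 108 and 87.0 CPM on glucose, low and high melanin necromass. For M419DRAFT_34212 the means were 427, 247 and 215 CPM.

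M419DRAFT_141702 was closest to M419DRAFT_66994 (r = 0.995), which stood at 415, 218 and 66.5 CPM on glucose, low and high melanin necromass, and to M419DRAFT_39454 (0.991), at 36.1, 14.1 and 4.40 CPM. In both, the ratio of mean levels was larger between low and high melanin necromass than between glucose and low melanin necromass. For M419DRAFT_74697 the closest were M419DRAFT_88742 (0.986), at 5.66, 0.166 and 0.325 CPM, and M419DRAFT_35143 (0.984), at 134, 92.2 and 101 CPM. Without glucose replicate 1 their correlations with M419DRAFT_74697 were 0.956 and 0.950, and those of the other pairs named here lay between 0.991 and 0.999.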

How the data were processed

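The authors trimmed paired-end reads with CHURP, quantified them with kallisto version 0.48.0 against the RUT-C30 transcripts of Ensembl Fungi and imported them into R with tximport. They deposited the estimated counts per gene as whole numbers, not scaled for library size. Transcript lengths were not used here, so levels are not compared between genes. Genes that reached 10 counts in 3 or more libraries were kept. edgeR version 4.0.16 (R version 4.3.3) gave TMM factors and a quasi-likelihood fit of all 9 libraries with substrate as the only factor. The 3 comparisons were contrasts of that fit, and p values were adjusted over 9312 genes. SE values are those implied by the F statistic, and 95% intervals use its degrees of freedom. Log2 CPM for deviations and correlations used a prior count of 2. A floor of 3 counts equals 0.128 to 0.158 CPM, and every count of the members lay above it. The procedure was checked on simulated counts in which few genes changed, and only on low melanin necromass. Many more genes changed in these data, so that check does not cover their scaling between libraries. Figures were drawn with matplotlib version 3.10.9.

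The members, the list of 17 other genes and the tests were chosen with earlier results of these data known. Named were the members, the 2 genes with the most similar profile to each, and the largest rise and fall of the list per comparison, with M419DRAFT_103899 and M419DRAFT_11580 added after their values were seen. The alternatives were DESeq2 version 1.42.0, RLE or upper-quartile factors, library totals alone, no filter on low counts, only the 2 substrates compared, glmTreat, a block for the replicate number, and the omission of single libraries. Correlations and glucose means without glucose replicate 1 were added after seeing the data. The authors' own fold changes and p-values in the supplement were not used.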

Additional observations from a re-analysis of the deposited data

How the results depend on the processing

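Against glucose, the 6 log2 fold changes were negative under all 17 alternatives, and between necromass types those of 5 genes were negative and that of M419DRAFT_74697 positive under the 15 or 16 alternatives that gave a value. With 1 library left out, 5 members were called on low melanin necromass in every fit, and 5 to 6 on high melanin necromass. Of the 9241 to 9305 genes then tested, 614 to 695 were called lower on low and 762 to 841 on high melanin necromass. Between necromass types the number lower at an adjusted p under 0.05 ranged from 0 to 4, against 3 with all libraries (0 if high melanin replicate 1 was omitted, and 1 if either other high melanin library or low melanin replicate 3 was). It was 4 with DESeq2, with library totals and with only the 2 substrates compared. Over all genes, 366 were lower by that rule, against 625 with DESeq2, 511 with library totals and 1371 with only the 2 substrates. The replicate block gave 237 genes. With glmTreat 4 members were called in each comparison with glucose, against 4.07% and 5.48% of all genes tested. Library totals moved the median of all genes by −0.11 for high melanin necromass against either other substrate, and no direction changed. The summed level without 1 library ranged from 2238 to 2589 CPM for glucose, from 323 to 398 CPM for low melanin and from 178 to 191 CPM for high melanin necromass.

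The replicate number as a block gave 5, 6 and 2 members in the 3 comparisons and left M419DRAFT_110434 above 0.05 between necromass types (adjusted p = 0.0630, edgeR). Of the 9312 genes tested, 645, 795 and 237 were lower by the same rules. Libraries of the same number did not deviate together (correlations −0.17 to 0.08). The labels do not say what the numbers stand for, and such correlations cannot show whether the cultures were paired. At the low counts of M419DRAFT_34405 and M419DRAFT_74697 on necromass, counting error limits what can be seen between necromass types.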
